A study of Mus musculus with 31 samples.

Results

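Prostaglandins are lipid messengers that cells make from arachidonic acid. The cyclooxygenases Ptgs1 and Ptgs2 make the common precursor prostaglandin H2, Ptges and Ptgis turn it into prostaglandin E2 and prostacyclin, and Hpgd breaks prostaglandins down. The signal is read at the cell surface by G protein-coupled receptors, of which Ptger1 to Ptger4 bind prostaglandin E2 and Ptgdr2 binds prostaglandin D2. In the colon the inducible enzyme Ptgs2 is known for its rise in inflamed and tumour tissue, and Hpgd is known as an enzyme of the normal mucosa.

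The 10 genes described here, Ptgs1, Ptgs2, Ptges, Ptgis, Hpgd, Ptger1, Ptger2, Ptger3, Ptger4 and Ptgdr2, were chosen by the gene name that the array files give to each spot, out of 19797 genes tested. The arrays carried 21 different spots for them, and 18 passed a filter on dim spots, so that every gene kept at least 1 spot. Each of the 31 one-colour arrays held RNA of the distal colon of a different mouse. In the CRC groups, BALB/c mice a few weeks old received azoxymethane, a carcinogen, by injection a week before the start and then dextran sodium sulfate, which injures the colon lining, in their water over the first days. The CRC + E171 groups received the same AOM/DSS treatment and, by gavage on most days of each week, 5 mg/kg bw/day of E171, the food additive titanium dioxide, while CRC mice received water. The treatment text in the labels reads as vehicle gavage for every sample, so the groups follow the sample titles. Colons were taken after 2, 7, 14 and 21 days, from 2 males and 2 females per group, except that CRC at 21 days has 3 arrays (1 male and 2 females). All mice carried the AOM/DSS treatment, so that no array shows an untreated colon.

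Levels are given as the log2 of a spot's signal minus the log2 of the 75th percentile of its array, averaged over the spots of a gene, so that a level of 0 lies at that percentile. A gene was called when CRC + E171 and CRC differed by a linear fold change of at least 1.5 with an unadjusted p under 0.05 in a limma fit over the 8 groups, and p-values adjusted over all 19797 genes stand beside the calls. Between 65.8 and 77.9% of an array's spots passed its own test of being well above background, and precision is limited by how many arrays each group has. The distal colon epithelium markers were detected on all arrays (6 of 6 genes), but their levels were low on some of them, as given below. The array labelled male 2 of CRC 14 days carried a female level of Xist (-1.12, where the females lay between -1.83 and -0.23 and the other males between -8.04 and -6.04), so sexes are given as labelled. Both males of CRC 7 days stood apart from the other arrays in genes of the epithelium and of neutrophils, as did CRC + E171 14 days male 2. The main results of 7 days, the means over days, the CRC time course and the correlations are also given without the 2 CRC males; the comparisons of the sexes at 7 days have no CRC males without them. In this tissue RNA, fewer cells of a type and less RNA per cell cannot be told apart.

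At 7 days 6 of the 10 genes were called, against 12.4% of all genes tested, and at 2, 14 and 21 days 0 of the 10 were called, against 1.73%, 6.39% and 2.63% of all genes. In CRC + E171 at 7 days the cyclooxygenase gene Ptgs2, the synthase genes Ptges and Ptgis and the receptor genes Ptger2 and Ptgdr2 were lower than in CRC, and the breakdown gene Hpgd was higher. The median log2 fold change of the 10 genes at 7 days was -0.69, where the median over all genes was -0.02, and without both CRC males it was -0.10, with 6 of the 10 genes lower and 4 higher. None of the 10 passed after adjustment over all genes, with a smallest adjusted p of 0.213 in limma, and 0 of all genes passed on any of the 4 days, although 3303 had an unadjusted p under 0.05 at 7 days. The CRC arrays of 7 days were widely spread in the called genes other than Ptgdr2, as the values by array show.

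**Figure D1:**
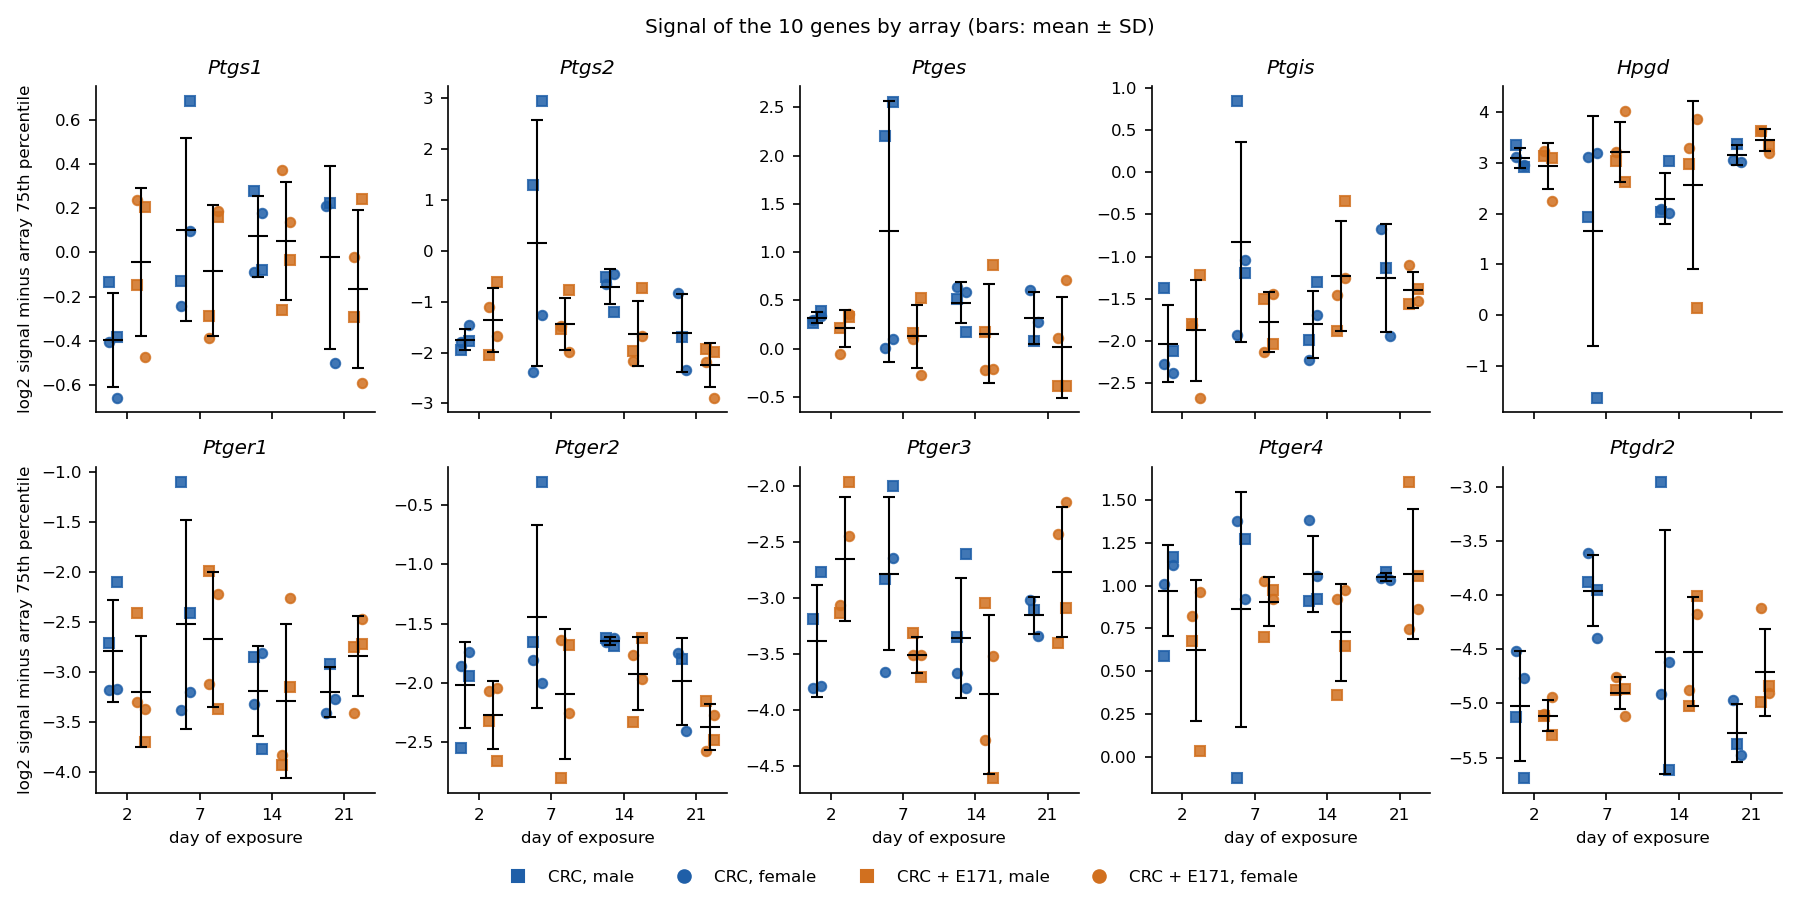
Level of the 10 genes on each of the 31 arrays (log2 signal minus the array's 75th percentile), by day of exposure, with CRC in blue, CRC + E171 in orange, males as squares, females as circles and mean ± SD as bars. At 7 days the 2 CRC males lie above the other arrays in Ptgs2 and Ptges, and in Hpgd they and CRC + E171 14 days male 2 are the lowest arrays.

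Ptgs2 makes the prostaglandin precursor on demand, in contrast to the steadily made Ptgs1. At 7 days the level of Ptgs2 in CRC was 1.30 and 2.95 in the males and -2.39 and -1.27 in the females, and in CRC + E171 it was -1.53 and -0.77 in the males and -1.48 and -1.98 in the females. The CRC males were thus above all CRC + E171 arrays, and the CRC females lay within or below their range. CRC + E171 differed from CRC by a log2 fold change of -1.59 ± 0.68 (SE, n = 4 against 4, adjusted p = 0.251), a 3.01-fold lower mean, with an exact permutation p of 0.343 (two-sided). With 1 array left out it ranged from -2.43 without CRC female 1 to -0.655 without CRC male 2. It was not called when CRC male 1, CRC male 2 or CRC + E171 female 2 was left out. On the 29 arrays of the series other than the CRC males of 7 days Ptgs2 lay between -2.89 and -0.46, so that the levels of these 2 males were outside the range of all the others.

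The single spot of Ptgs2 lies on the + strand of chr1:151954744-151954803 in the mm9 coordinates of the array files, and that of Hpgd on chr8:58799399-58799458. The 3 spots of Ptges lie between chr2:30744995 and 30748273, and the kept spot of Ptgdr2 on chr19:11016921-11016980. None of the 21 spots was saturated on any array.

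Ptgs2 at 14 days had a mean of -0.71 ± 0.34 (SD, n = 4) in CRC and of -1.63 ± 0.64 in CRC + E171. The 4 CRC arrays were at -0.52, -1.20, -0.64 and -0.46, and the 4 CRC + E171 arrays at -1.97, -0.72, -2.17 and -1.68. Only CRC + E171 male 2, the array with low goblet cell markers, reached into the range of the CRC arrays. The log2 fold change of -0.93 ± 0.68 was not called (adjusted p = 0.767 in limma, exact permutation p = 0.0571), but Ptgs2 was called with array weights (-1.2) and with only the arrays of 14 days in the fit (-0.928). At 2 days it was 0.39 ± 0.68 and at 21 days -0.62 ± 0.73, neither of them called.

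Ptgs1, the constitutive cyclooxygenase, varied little, with levels between -0.66 and 0.69 over the 31 arrays and a residual SD of 0.32, against 1.0 for Ptgs2 and a median of 0.438 over all genes. Its log2 fold changes ran from -0.18 at 7 days to 0.35 at 2 days and none was called. The highest array was again CRC 7 days male 2, at 0.69, while male 1 of that group was at -0.13.

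Ptges, the inducible synthase of prostaglandin E2, followed Ptgs2 at 7 days. Its level in CRC was 2.20 and 2.56 in the males and 0.01 and 0.10 in the females, and in CRC + E171 it was 0.16, 0.52, 0.10 and -0.27. The groups overlapped through the CRC females. This gave a log2 fold change of -1.09 ± 0.40 (SE, n = 4 against 4, adjusted p = 0.213), with an exact permutation p of 0.314. With 1 array left out it ranged from -1.49 without CRC female 1 to -0.64 without CRC male 2. It was not called when CRC male 1 or CRC male 2 was left out. On the other days it was -0.11 ± 0.40, -0.32 ± 0.40 and -0.31 ± 0.43, and no call was made. The 3 spots of Ptges did not move alike: 2 of them fell by 1.88 and 1.37 on the log2 scale at 7 days, and the third and brightest differed by -0.001, so that with the brightest spot alone Ptges was not called.

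Ptgis makes prostacyclin, mainly in vessel walls and smooth muscle. At 7 days its level was 0.84 in CRC male 1 and -1.19, -1.93 and -1.04 in the other CRC arrays, against -1.50, -2.03, -2.12 and -1.44 in CRC + E171. Unlike Ptgs2 and Ptges, Ptgis was high in CRC male 1 but not in male 2. The difference on the log2 scale was -0.94 ± 0.43 (adjusted p = 0.276, exact permutation p = 0.143), and without CRC male 1 it was -0.39 and not called. The 3 spots gave -1.50, -1.16 and -0.17.

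Hpgd oxidises prostaglandin E2 to an inactive form. At 7 days it was at 1.93 and -1.63 in the CRC males and at 3.12 and 3.20 in the CRC females, against 3.03, 2.62, 3.21 and 4.03 in CRC + E171. The lowest level of the series was that of CRC male 2. CRC + E171 was higher by a log2 fold change of 1.57 ± 0.73 (SE, n = 4 against 4, adjusted p = 0.284), a 2.96-fold higher mean, with an exact permutation p of 0.229. Without CRC male 2 it was 0.47 and not called.

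At 14 days Hpgd was at 2.04, 2.09 and 2.00 in 3 of the CRC arrays and at 3.04 in the array labelled male 2, whose sex genes went against its label. In CRC + E171 it was at 2.97, 3.30 and 3.86 in 3 arrays and at 0.14 in male 2. The log2 fold change over all 4 against 4 was 0.28 ± 0.73 (adjusted p = 0.957), and without CRC + E171 male 2 it was 1.08, neither of them called. With array weights it was 0.93 and called. At 2 and 21 days the arrays of both groups lay between 2.26 and 3.63.

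Of the 10 genes, Ptgs2, Ptges and Hpgd had the largest log2 fold changes in size at 7 days, values that rested on the CRC males. For these genes the 300 bases around the start sites in the RefSeq table (250 before and 50 after the start, build GRCm38.p6) are shown. Matches on either strand to 4 motifs spelled in letters and to the kappaB consensus are in capitals. The motifs were the TATA box TATAAA (in 13.6% of the 32851 promoters of that table), the E box CACGTG (7.2%), the cAMP response half-site TGACG (20.8%), the C/EBP core TTNNGNAA (40.7%) and the kappaB consensus (4.5%). In all, 8 of the 10 genes had an entry in the table.
Ptgs2, chr1:150099781-150100080, + strand: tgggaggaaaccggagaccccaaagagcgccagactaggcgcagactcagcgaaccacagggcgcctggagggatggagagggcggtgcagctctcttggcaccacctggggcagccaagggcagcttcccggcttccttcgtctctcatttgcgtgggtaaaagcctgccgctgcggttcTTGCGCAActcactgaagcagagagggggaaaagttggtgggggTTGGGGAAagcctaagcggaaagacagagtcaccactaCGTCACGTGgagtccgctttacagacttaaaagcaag
Ptges, chr2:30903248-30903547, - strand: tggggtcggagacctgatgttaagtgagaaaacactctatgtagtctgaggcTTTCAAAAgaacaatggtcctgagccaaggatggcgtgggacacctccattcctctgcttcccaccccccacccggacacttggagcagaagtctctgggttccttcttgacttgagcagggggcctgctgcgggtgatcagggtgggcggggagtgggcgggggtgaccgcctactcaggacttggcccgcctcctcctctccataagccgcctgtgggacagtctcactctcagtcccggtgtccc
Hpgd, chr8:56294302-56294601, + strand: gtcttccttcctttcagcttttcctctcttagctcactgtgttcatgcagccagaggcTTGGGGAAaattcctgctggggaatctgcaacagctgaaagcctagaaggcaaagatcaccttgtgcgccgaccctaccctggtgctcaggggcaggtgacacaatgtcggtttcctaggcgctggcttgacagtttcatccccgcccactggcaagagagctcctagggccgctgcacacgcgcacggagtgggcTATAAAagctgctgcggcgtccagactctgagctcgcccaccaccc
The Ptgs2 window held matches to the C/EBP core at -69 to -62 and -25 to -18 from the start site, and a half-site at 14 to 18 that overlaps an E box at 17 to 22. The Ptges window held a C/EBP core match at -198 to -191. The Hpgd window held a C/EBP core match at -192 to -185 and a TATA box at 5 to 10. These windows held no match to the kappaB consensus, which says only that its letters are not in these 300 bases. A match is a description of the sequence and binding was not measured.

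Of the 4 receptor genes for prostaglandin E2, Ptger2 was called at 7 days. Ptger2, which raises cAMP, was at -1.66, -0.30, -1.81 and -2.00 in the CRC arrays of 7 days (males first) and at -2.80, -1.68, -1.64 and -2.25 in CRC + E171. CRC male 2 was the highest array of the series and the other 3 CRC arrays lay within the range of CRC + E171. Their means differed by -0.65 ± 0.29 (adjusted p = 0.269, exact permutation p = 0.257). Without CRC male 2 the difference was -0.27 and with normexp -0.524, neither of them called.

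Ptger3, which lowers cAMP, was not called on any day, but it was called at 7 days with quantile normalization (-0.756) or the authors' values (-0.757) and at 2 days with normexp (0.687). Its log2 fold change was 0.73 ± 0.37 at 2 days (adjusted p = 0.9999 in limma) and -0.73 ± 0.37 at 7 days (adjusted p = 0.318). At 7 days the CRC arrays were at -2.83, -2.00, -3.66 and -2.64 and the CRC + E171 arrays at -3.32, -3.70, -3.51 and -3.51, so that 1 CRC female overlapped the other group. Ptger3 was the gene of the 10 whose effect of E171 differed between days by the F test (1 of 10, against 6.74% of all genes), with an adjusted p of 0.715. The 2 brighter spots of Ptger3 gave -1.06 and -1.10 at 7 days and the dimmest kept spot -0.01.

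Ptger1, which signals through calcium, and Ptger4, which raises cAMP, were not called on any day. The log2 fold changes of Ptger1 ran from -0.41 at 2 days to 0.36 at 21 days. At 7 days Ptger1 was at -1.09, -2.41, -3.38 and -3.20 in CRC and at -1.99, -3.37, -3.12 and -2.22 in CRC + E171, and CRC male 1 had the highest level of the series. Those of Ptger4 ran from -0.35 at 2 days to 0.05 at 7 days. At 2 days Ptger4 was at 0.59, 1.17, 1.01 and 1.12 in CRC and at 0.68, 0.03, 0.82 and 0.96 in CRC + E171, and the groups overlapped. Ptger4 had its lowest array, at -0.12, in CRC 7 days male 1, while male 2 of that group was at 1.27.

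Ptgdr2, the receptor for prostaglandin D2 on type 2 lymphocytes, eosinophils and basophils, was the gene of the 10 whose arrays did not overlap at 7 days, where 4.8% of all genes had no overlap. CRC was at -3.88, -3.95, -3.61 and -4.39 and CRC + E171 at -4.88, -4.87, -4.76 and -5.12. CRC males and females lay within the same range here. On the log2 scale CRC + E171 differed by -0.95 ± 0.37 (SE, n = 4 against 4, adjusted p = 0.224), and the exact permutation p was 0.0286, the smallest that 4 against 4 arrays allow. The kept spot of Ptgdr2 was dim, well above background on 29 of the 31 arrays, and with normexp background correction the log2 fold change was -0.39 and not called. Another spot of the gene was well above background on 2 arrays and was not kept, with it included the value was -0.43 and not called, and 2 of the 8 markers in the list of eosinophils and type 2 lymphocytes were detected on no array.

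On the other days CRC + E171 differed from CRC in Ptgdr2 by -0.09 ± 0.37 (log2) at 2 days, 0.003 ± 0.37 at 14 days and 0.56 ± 0.39 at 21 days, none of them called. Its highest level of the series, -2.95, was in CRC 14 days male 1, while the other CRC arrays of that day were at -5.61, -4.91 and -4.62. The difference of 0.003 at 14 days thus depends on that array. At 21 days CRC was at -5.38, -4.97 and -5.47 and CRC + E171 at -4.99, -4.84, -4.12 and -4.90, so that the groups overlapped by 1 CRC array and the mean difference had the opposite sign to that of 7 days.

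**Figure D2:**
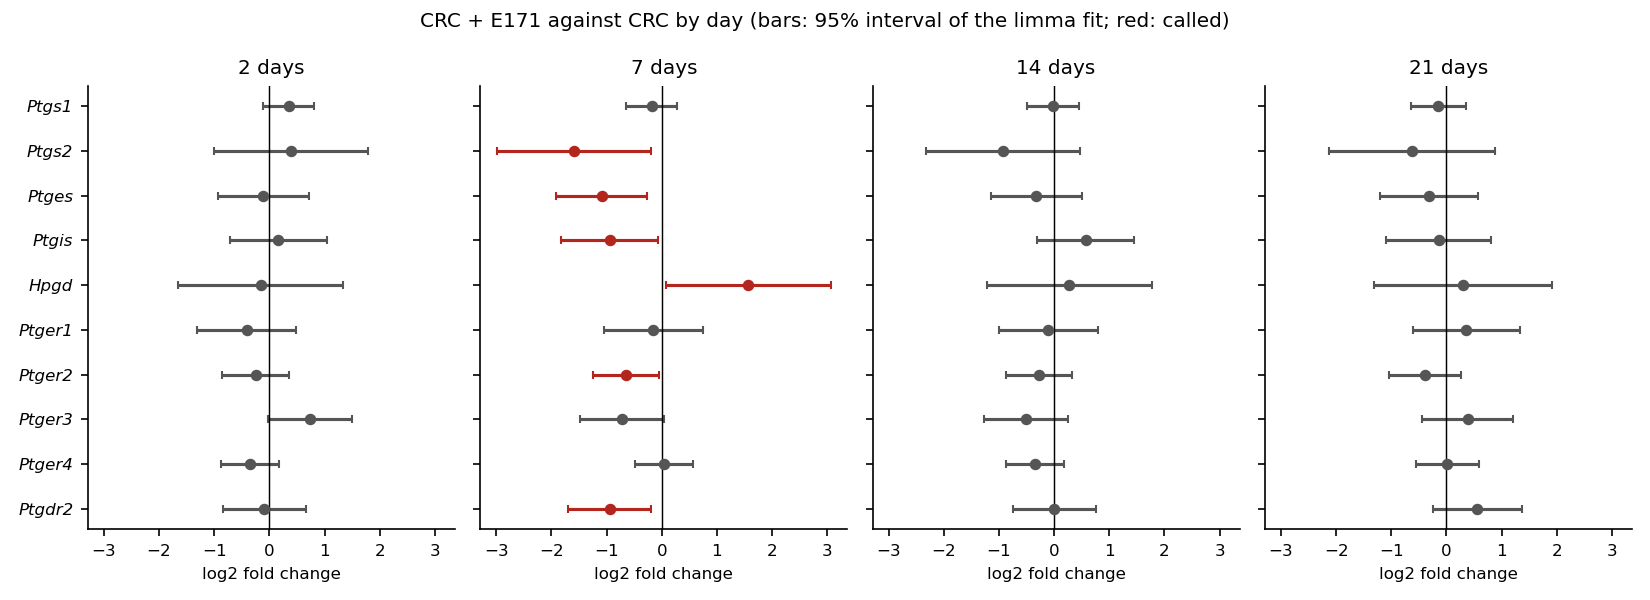
Log2 fold change of CRC + E171 against CRC for the 10 genes at 2, 7, 14 and 21 days, with the 95% interval of the limma fit as bars and called genes in red. At 7 days 6 genes are called, from -1.59 for Ptgs2 to 1.57 for Hpgd, and at the other days 0.

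The sexes were compared because each group held males and females. At 7 days the effect of E171 differed between males and females for Ptgs2, Ptges and Ptger2 (3 of 10 called, against 18.0% of all genes). For Ptgs2 the log2 fold change was -3.27 ± 0.61 in males (adjusted p = 0.00205) and 0.10 ± 0.61 in females (adjusted p = 0.9998), and their difference was -3.37 ± 0.87 (adjusted p = 0.0412 over all genes). For Ptges it was -2.04 ± 0.25 in males and -0.14 ± 0.25 in females, and their difference was -1.90 ± 0.36 (adjusted p = 0.00866). These values rest on 2 mice of a sex per group, so that the sex and the state of single mice cannot be told apart.

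Hpgd and Ptger2 also passed after adjustment within males at 7 days, with log2 fold changes of 2.67 ± 0.85 (adjusted p = 0.042) and -1.26 ± 0.41 (adjusted p = 0.0446). Their differences between sexes were 2.21 ± 1.20 (adjusted p = 0.353) and -1.22 ± 0.57 (adjusted p = 0.271). In all, 4 of the 10 genes passed in males and 0 in females after adjustment, while 15.2% of all genes passed in males and 0 of all genes in females. Ptgdr2 was at -0.96 ± 0.57 in males and -0.94 ± 0.57 in females, neither of them past the adjusted threshold. Within CRC at 7 days, males were above females by 3.95 ± 0.61 in Ptgs2 (adjusted p = 0.000556) and by 2.32 ± 0.25 in Ptges (adjusted p = 6.12e-05), and Hpgd was lower in males by a log2 difference of -3.00 ± 0.85 (adjusted p = 0.024). On the other days the effect differed between sexes for 0 of 10 genes at 2 days (0.253% of all genes), for Ptges at 14 days (1 of 10, against 8.03%, adjusted p = 0.439) and for 0 of 10 at 21 days (1.25%). At 14 days the CRC males include the array whose sex genes go against its label. The CRC + E171 males of that day include male 2, with Ptges at 0.87.

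**Figure D3:**
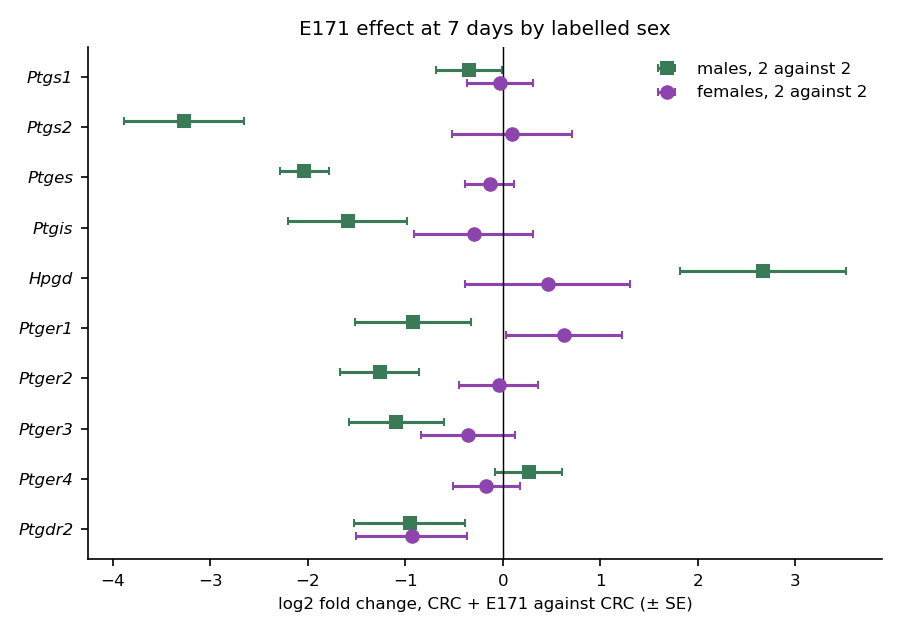
Log2 fold change of CRC + E171 against CRC at 7 days in males (squares) and females (circles), 2 arrays against 2 in each, with the SE of the limma fit over sex, day and arm as bars. Ptgs2 is at -3.27 in males and 0.10 in females, and Ptgdr2 is near -0.95 in both.

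With both CRC males left out, 0 of the 10 genes were called at 7 days, and over all genes the share called was 2.33%. The log2 fold change of Ptgs2 was then 0.39 ± 0.45, of Ptges 0.08 ± 0.29, of Hpgd 0.06 ± 0.60, of Ptgis -0.29 ± 0.42 and of Ptger2 -0.19 ± 0.28, with 2 CRC arrays against 4. That of Ptgdr2 was -0.90 ± 0.46, nearly the value from all arrays. Leaving out 1 array at a time, 2 genes were called without CRC male 2, 7 without CRC female 1 and numbers between these without each of the other arrays of the 2 groups. With quantile normalization or the authors' values 7 genes were called, without the filter or with the brightest spot 5 and with normexp 4. With array weights 0 of the 10 genes were called. With scan day as a block Ptges was the gene still called (-1.05), while Ptgs2 at -1.45, Ptgis at -0.96, Hpgd at 1.40, Ptger2 at -0.55 and Ptgdr2 at -0.73 were not. With only the 8 arrays of 7 days in the fit the log2 fold changes were as over all arrays, and Ptgdr2 was the gene still called.

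The arrays were scanned on 3 days, and at 7 days the first scan day held 2 arrays of each group, male 1 and female 1. Within it the mean log2 difference was -0.96 in Ptgs2, -0.97 in Ptges, -1.27 in Ptgis, 0.59 in Hpgd, -0.49 in Ptger2 and -1.07 in Ptgdr2, all of the same sign as over all 8 arrays. These arrays are part of the same 8 and include CRC male 1, so the signs are no independent check. Between the female 1 arrays the sign was the other way for Ptgs2 (-2.39 in CRC, -1.48 in CRC + E171), Ptges (0.006, 0.10) and Ptger2 (-1.81, -1.64). Ptgis, Hpgd and Ptgdr2 kept their sign there. The other 2 scan days held 1 group of 7 days each, so that they gave no value.

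Averaged over the 4 days, 0 of the 10 genes were called (1.79% of all genes). The mean log2 fold change of Ptgs2 was -0.69 ± 0.35 (adjusted p = 0.5), of Ptges -0.46 ± 0.20 (adjusted p = 0.491) and of Ptger2 -0.39 ± 0.15 (adjusted p = 0.491). With the authors' values Ptgs2 was called at -0.729, and it was also called with the replicate number as a block. Without both CRC males 0 genes were called (0.849% of all genes), with Ptgs2 at -0.19 ± 0.20, Ptges at -0.17 ± 0.13 and Ptger2 at -0.28 ± 0.12. Over all arrays the means of Ptges and Ptger2 were lower in CRC + E171 on each of the 4 days, without a call on 2, 14 and 21 days. For Ptges the sign turned at 7 days without both CRC males (0.08) and at 2 days with the brightest spot (0.009). CRC and CRC + E171 of a given day were never on 1 slide, but slides with CRC of 7 days also carried CRC + E171 of 21 days and the reverse, and likewise for 2 and 14 days, so that the mean effect over such a pair of days could be estimated within slides. Within slides 0 of the 10 genes were called over 7 and 21 days (2.64% of all genes) and 0 over 2 and 14 days (2.75%). Over 7 and 21 days Ptgs2 was at -1.20 ± 0.76, Ptges at -0.74 ± 0.42 and Hpgd at 1.01 ± 0.62. Without both CRC males they were at -0.05 ± 0.33, -0.12 ± 0.22 and 0.17 ± 0.22, again with 0 of the 10 genes called (0.914% of all genes).

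The time course was followed within each arm. Among the CRC arrays, Ptgs2, Ptgis and Ptgdr2 differed between days by the F test (3 of 10, against 9.84% of all genes, smallest adjusted p = 0.498). Relative to 2 days, Ptgs2 was higher by 1.90 ± 0.68 at 7 days and by 1.04 ± 0.68 at 14 days, and it was at 0.12 ± 0.73 above the 2-day level at 21 days. Ptgdr2 was higher by 1.07 ± 0.37 at 7 days. Without both CRC males of 7 days, Ptgs2 was the gene of the 10 that differed between days (1 of 10, against 5.16% of all genes, adjusted p = 0.934), with -0.08 ± 0.45 at 7 days and 1.04 ± 0.37 at 14 days. Ptgdr2 was then at 1.02 ± 0.46 at 7 days, close to the value from all arrays, without passing the F test (unadjusted p = 0.0595 in limma). In CRC + E171, Ptger3 was the gene of the 10 that differed between days (1 of 10, against 14.7% of all genes, adjusted p = 0.192), with -0.86 ± 0.37 at 7 days and -1.21 ± 0.37 at 14 days relative to 2 days.

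The levels of Ptgs2 and Ptges went together over the 31 arrays, with a Pearson's r of 0.84 (permutation p = 2e-05, adjusted p = 6e-05 over 3 pairs) and a Spearman's rho of 0.56 (permutation p = 0.00148, adjusted p = 0.00222). Without the 2 arrays farthest from the median of Ptgs2, which were the CRC males of 7 days, r was 0.45 (permutation p = 0.0144). The levels of Ptgs2 and Hpgd ran in opposite directions, with an r of -0.80 (permutation p = 0.00014, adjusted p = 0.00021) and a rho of -0.63 (permutation p = 0.00023, adjusted p = 0.00069), and r was -0.56 without the same 2 arrays (permutation p = 0.00076). After subtracting group means r was 0.80 for Ptgs2 and Ptges and -0.75 for Ptgs2 and Hpgd, and without the CRC males of 7 days these were 0.32 and -0.45. Hpgd and the uptake transporter gene Slco2a1 had an r of 0.38 (permutation p = 0.0391, adjusted p = 0.0391) and a rho of 0.34 (permutation p = 0.0593, adjusted p = 0.0593), and r was 0.33 without the 2 arrays farthest from the median of Hpgd (permutation p = 0.0811).

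**Figure D4:**
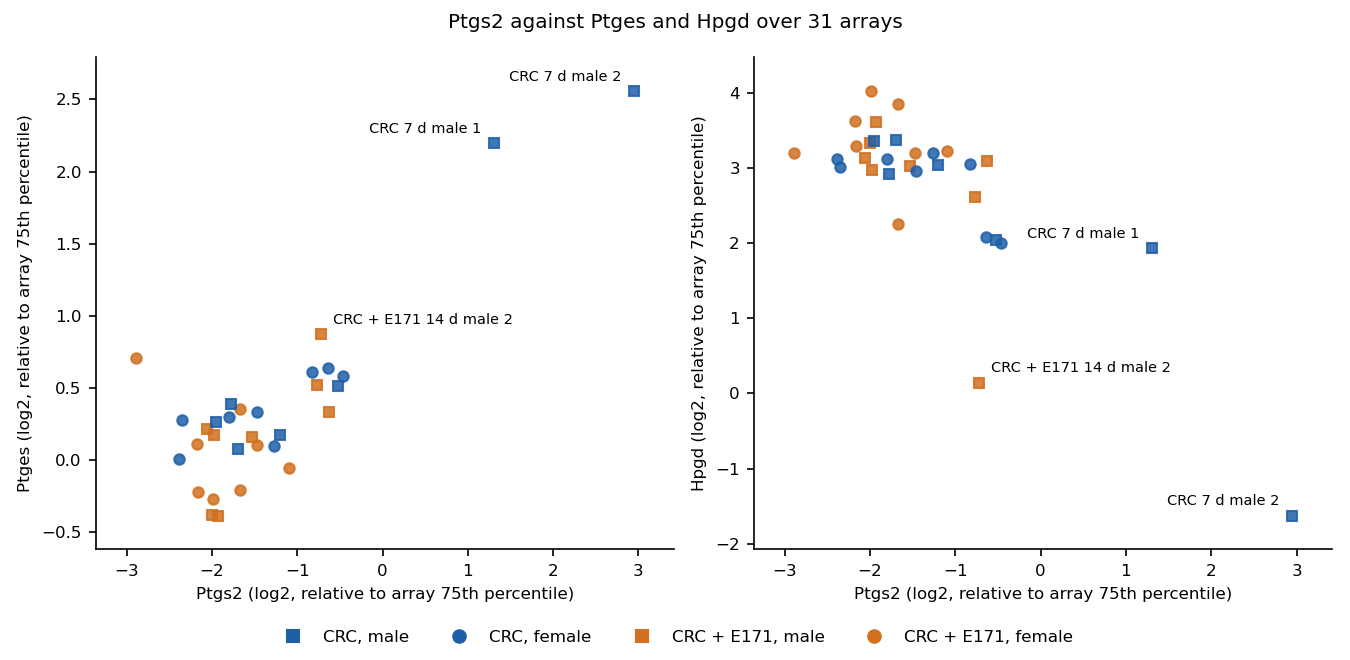
Level of Ptgs2 against Ptges (left) and Hpgd (right) on the 31 arrays, each as log2 signal relative to the array's 75th percentile, with CRC in blue, CRC + E171 in orange, males as squares and females as circles. The 2 CRC males of 7 days lie apart, at Ptgs2 levels of 1.30 and 2.95, and r without them is 0.45 for Ptges and -0.56 for Hpgd.

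Of the other genes, those most like each of the 10 over the 31 arrays after subtracting group means were named by their correlation, as a description of arrays that share slides and tissue makeup. The comparison covered 17056 genes, without 56 that lacked a value on some array and 2684 with names typical of a clone, locus, gene model, pseudogene or microRNA. For Ptges they were Cemip (r = 0.94), Lcn2 (r = 0.92), which neutrophils and inflamed epithelium make, and Ifitm6 (r = 0.92). For Hpgd they were Cyp3a13 (r = 0.94), Upk1a (r = 0.94) and Entpd5 (r = 0.93). For Ptgis they were Kctd15 (r = 0.95), Tmod1 (r = 0.95) and Galnt16 (r = 0.94). Ptgs2 had Lix1l, Kirrel and Kcnk13 (r = 0.90 each). Without both CRC males of 7 days r was 0.78, 0.69 and 0.67 for the genes named with Ptges, 0.89, 0.86 and 0.93 for those with Hpgd, 0.93, 0.94 and 0.90 for those with Ptgis and 0.70, 0.72 and 0.66 for those with Ptgs2. The highest r was 0.76 for Ptgs1 (Tbx3), 0.78 for Ptger1 (Eepd1), 0.81 for Ptger2 (Slco3a1), 0.73 for Ptger3 (Exoc3), 0.83 for Ptger4 (Siglecf) and 0.63 for Ptgdr2 (Olfr1163), and without these males it was 0.75, 0.68, 0.72, 0.71, 0.70 and 0.67 for the same pairs.

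Marker genes of cell types moved with these results. In the neutrophil list (7 of 7 genes tested), the median of the levels after subtracting each gene's mean was 4.33 in CRC 7 days male 1 and 6.11 in male 2, 2.61 in CRC + E171 14 days male 2, and between -1.90 and 1.74 on the other 28 arrays. In the goblet cell list (7 of 7) it was -6.62, -2.65 and -3.88 on these 3 arrays, against -0.32 to 1.26 on the others. In the list of surface colonocytes, among the cells that make Hpgd, it was -5.94, -3.74 and -2.47, against -0.28 to 1.86. In the list of distal colon epithelium it was -4.87, -1.83 and -1.07, against -0.16 to 0.99. The 2 CRC males, which had the highest Ptgs2 and Ptges levels of the series, were thus high in neutrophil and low in epithelial markers. The same 3 arrays were also above the 28 others in the lists of macrophages (0.81, 1.21 and 0.56, against at most 0.51), fibroblasts (1.14, 1.14 and 1.15, against at most 0.41) and endothelium (0.43, 1.54 and 0.80, against at most 0.33). CRC + E171 14 days male 2 had the next highest Ptges level (0.87), but its Ptgs2 level of -0.72 lay within the range of the other 28 arrays (-2.89 to -0.46).

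The log2 of the summed level of the neutrophil list was between 6.29 and 8.93 in CRC and between 6.16 and 6.69 in CRC + E171 at 7 days, and that of the goblet cell list was between 2.71 and 9.54 in CRC and between 9.24 and 10.02 in CRC + E171. Of the neutrophil markers 2 of 7 were called lower at 7 days and of the goblet cell markers 7 of 7 were called higher, where 12.4% of all genes were called. Without both CRC males, 0 of 7 markers were called in each of these lists, where 2.33% of all genes were called. In other lists some markers were called then. In CRC + E171, 6 of 8 skeletal muscle markers were called lower (median log2 fold change -1.54), as were 1 of 8 mast cell markers (median -1.68) and 1 of 7 tuft cell markers (median 0.03). Called higher were 1 of 8 markers of enteric neurons and glia (median 0.74) and 1 of 7 of squamous epithelium, whose median was -0.56. Pancreatic acinar markers had a median of -4.73 with 0 of 6 called. In these lists CRC female 2 was high in skeletal muscle markers (1.98), CRC female 1 in pancreatic acinar markers (7.66), and CRC + E171 female 2 was low in mast cell markers (-3.36). CRC 7 days male 1 also stood apart in skeletal muscle markers (6.81, against -1.19 to 1.98 on the 28 other arrays) and squamous epithelium markers (7.40, against -2.16 to 6.34), and male 2 was high in pancreatic acinar markers (8.58), as were some other arrays. CRC + E171 14 days female 1 was high in small intestine markers (6.36), where the next highest array was at 0.669. Within groups, the levels of Ptges and the neutrophil list had an r of 0.91, those of Hpgd and the neutrophil list an r of -0.84, and those of Ptgis and the smooth muscle list an r of 0.86 over the 31 arrays. These were 0.78, -0.78 and 0.87 without both CRC males. The genes went with other lists too on those arrays. Hpgd had an r of -0.79 with macrophages and 0.74 with goblet cells, and Ptgis had 0.765 with fibroblasts and -0.78 with T cells. Ptgs2 had 0.77 with fibroblasts, 0.70 with squamous epithelium and -0.57 with goblet cells. The part of these cell types in the results was not tested. For Ptgdr2 the r with the neutrophil list was 0.25 and with the list of eosinophils and type 2 lymphocytes 0.22, and without both CRC males 0.34 and 0.23. The latter list's log2 summed level was 3.19 and 2.14 in CRC 7 days males 1 and 2, against at most 1.45 on the 28 other arrays. Its centred medians there, 0.001 and 0.24, lay within the range of those arrays.

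**Figure D5:**
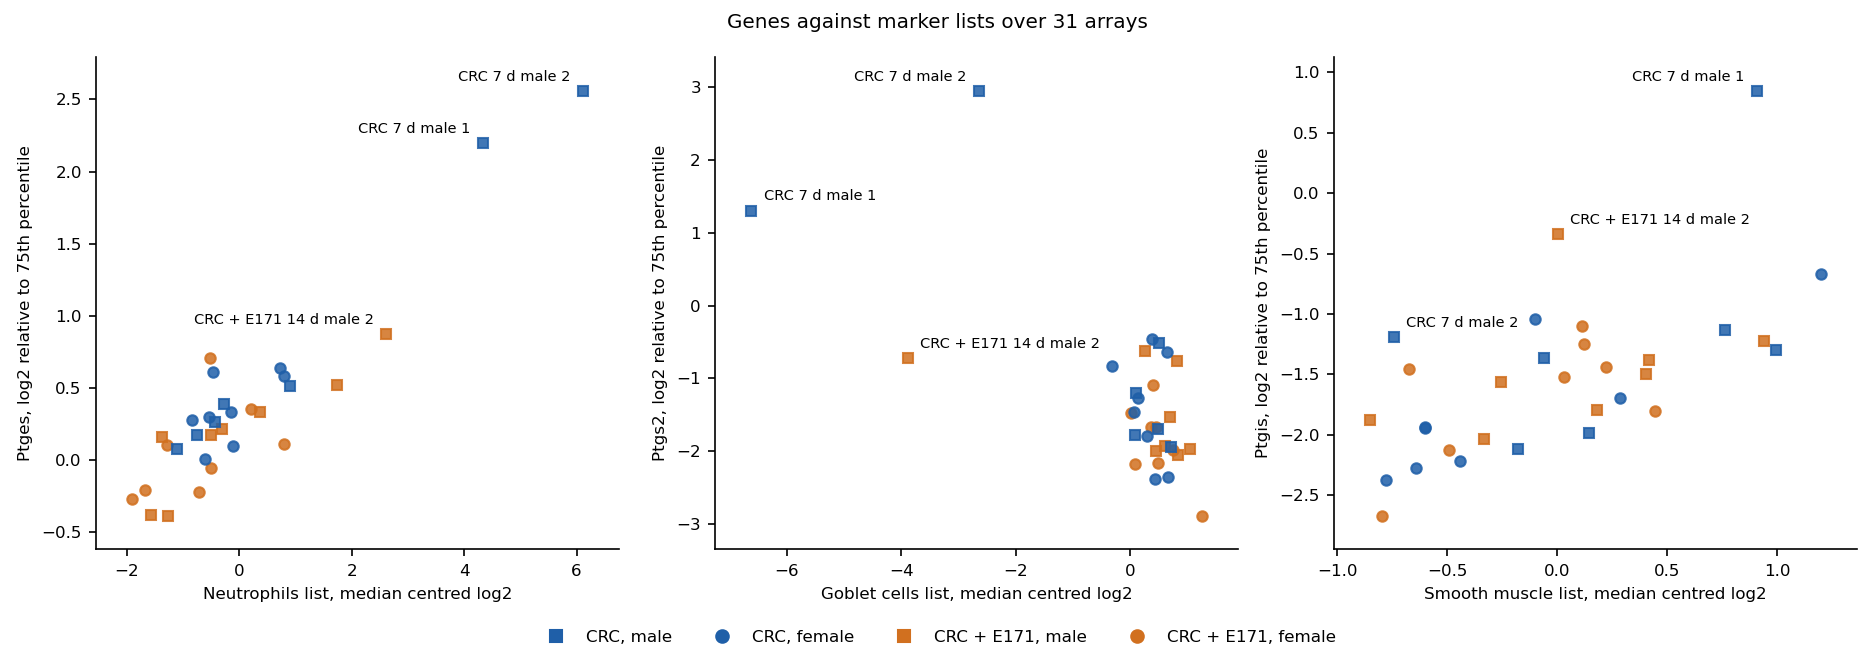
Level of Ptges against the neutrophil list, of Ptgs2 against the goblet cell list and of Ptgis against the smooth muscle list on the 31 arrays, where a list's value is the median of its genes' log2 levels after subtracting each gene's mean. CRC 7 days males 1 and 2 lie at 4.33 and 6.11 in the neutrophil list and at -6.62 and -2.65 in the goblet cell list.

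Other genes of the pathway were looked at by list, with 50 of 51 listed genes tested. At 7 days 2 were called higher and 14 lower, which is to be read against the 12.4% of all genes. At 2, 14 and 21 days 1, 2 and 0 of the 50 were called, where 1.73%, 6.39% and 2.63% of all genes were called. None passed after adjustment. Among the genes of inflammation that are induced together with Ptgs2, all 8 were lower in CRC + E171 at 7 days and 5 were called: Il6 at -4.59 ± 1.66, Cxcl2 at -4.18 ± 1.47, Cxcl1 at -3.60 ± 1.47, Il11 at -3.29 ± 1.06 and Ccl2 at -2.30 ± 0.76 (log2 fold change ± SE, adjusted p between 0.199 and 0.235). These are cytokine and chemokine genes. In CRC + E171 at 7 days the mean level was -6.26 for Il6 and -7.305 for Cxcl2, below the -4.90 of the dim gene Ptgdr2. The size of these 2 fold changes is therefore imprecise.

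In the leukotriene branch, the other outlet of arachidonic acid, 3 of 10 genes were called lower at 7 days. They were the 5-lipoxygenase gene Alox5 at -0.996 ± 0.28, its activating protein gene Alox5ap at -1.70 ± 0.51 and the leukotriene B4 receptor gene Ltb4r1 at -1.83 ± 0.48 (adjusted p = 0.199 for each). Among the other prostanoid synthases 3 of 10 were called lower at 7 days: Cbr3 at -1.36 ± 0.45, Prxl2b at -0.95 ± 0.43 and Ptgds, which makes prostaglandin D2, at -0.59 ± 0.28. Of the genes for uptake, export and breakdown 2 of 6 were called lower, the exporter gene Abcc4 at -1.01 ± 0.37 and the reductase gene Ptgr1 at -0.62 ± 0.21.

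Of the other prostanoid receptors 1 of 6 was called lower at 7 days, the prostacyclin receptor gene Ptgir at -0.95 ± 0.44, and 1 higher, the nuclear receptor gene Pparg at 1.504 ± 0.54. Of the genes for arachidonate release 1 of 10 was called higher at 7 days, the secreted phospholipase gene Pla2g10 at 1.55 ± 0.64, and 1 lower at 14 days, Pla2g4f at -2.46 ± 0.94. The other calls were Ptgfr, the receptor for prostaglandin F2alpha, at 1.38 ± 0.65 at 14 days and the leukotriene receptor gene Ltb4r2 at 1.57 ± 0.72 at 2 days. Ptgfr was dim, with means of -4.84 in CRC + E171 and -6.22 in CRC at 14 days. Without both CRC males, 0 of the 50 genes were called at 7 days, where 2.33% of all genes were called. Il6 was then at -0.04, Cxcl2 at -0.03, Ccl2 at -0.29 and Alox5ap at -0.28, while Cxcl1 was at 0.72, Pla2g10 at -0.36 and Pparg at 0.89. Of the other genes called at 7 days with all arrays, Ltb4r1 was at -0.57, Prxl2b at -0.49, Alox5 at -0.48, Ptgds at -0.405 and Ptgr1 at -0.40. Cbr3 was at -0.32, Abcc4 at -0.29, Il11 at -0.23 and Ptgir at 0.17.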

How the data were processed

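Distal colon RNA was hybridised to one-colour Agilent mouse arrays, and per the file headers the spots were extracted with Agilent Feature Extraction 10.7.3.1 against mm9. The deposited intensity is background-subtracted and not normalized between arrays. The authors also deposited a log2 matrix of 42568 spots, filtered by flags and mean, imputed by K-nearest neighbours and normalized by a step that their text does not name; it served as an alternative. The submitters' processing notes name limma. The main values were log2 of the processed signal minus the array's 75th percentile, without spots marked as outliers. A spot entered if at least 1 group had it well above background on 60% of its arrays, with a group mean of 4 or higher on the log2 scale; 42787 of 56605 did. Spots were matched to RefSeq genes by accession, symbol or synonym and averaged per gene.

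The fits used limma 3.58.1 and statmod 1.5.0 in R 4.3.3, with Benjamini-Hochberg adjustment over 19797 genes; per gene an exact permutation test was added. The limma step was tested on simulated data. The genes named are the 10 members on every day and other pathway genes when called. Members and lists were chosen with earlier results of these data known. The alternatives were quantile normalization, normexp with an offset of 50, the authors' values, no filter, a stricter filter, the brightest spot, the compared groups only, blocks by replicate number, slide and scan day, array weights, leaving out each array, and leaving out the array whose sex genes go against its label. Leaving out both CRC males of 7 days or CRC + E171 male 2 of 14 days, and day as a term within slides, were added after seeing the data.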

Additional observations from a re-analysis of the deposited data

Results flagged for a closer look

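The effect of E171 at 7 days differed between males and females after adjustment for Ptgs2, with a log2 difference of -3.37, and for Ptges, with -1.90. With quantile normalization, normexp, the authors' values or without the array whose sex genes go against its label, the adjusted p in limma lay between 0.0235 and 0.0499 for Ptgs2 and between 0.00450 and 0.0119 for Ptges.

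Of 70 combinations of gene and group of 4 arrays, 3 had 1 array far from the others. Chance gives about 1 in 20 groups, so that these 3 are no more than chance gives. Hpgd was at 3.04 in CRC 14 days male 2, with the nearest other array at 2.09, and this is the array whose sex genes go against its label. Hpgd was at 2.26 in CRC + E171 2 days female 2, with the nearest at 3.103. Ptgdr2 was at -4.12 in CRC + E171 21 days female 1, with the nearest at -4.84.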

How the results depend on the processing

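Of the values of single genes, 231 of 274 under other settings and 212 of 242 with 1 array left out kept their direction and their side of the threshold, as did 96 of 116 counts and relations in size. At 7 days the 6 calls became 7 with quantile normalization or the authors' values, 5 without the filter or with the brightest spot, 4 with normexp, 0 with array weights, 1 with scan day as a block, 1 with the compared groups only and 0 without both CRC males. Elsewhere the count of called genes was 1 at 2 days with normexp, 1 at 14 days with the authors' values or the compared groups only and 2 with array weights, 1 at 21 days without the filter, 1 for the mean over 4 days with the authors' values, 0 for the difference between days with array weights, 5 for CRC between days with array weights and 1 without the CRC males, and 2 for the sex difference at 14 days with normexp or the authors' values. The r of Hpgd and Slco2a1 was 0.332 after subtracting group means, 0.335 with quantile normalization, 0.318 with the authors' values and 0.329 without the 2 farthest arrays. At 7 days the sign turned with array weights for Ptgs2 (0.018), Ptger1 (0.412) and Ptger4 (-0.187), without both CRC males for Ptgs2 (0.387), Ptges (0.076), Ptger1 (0.619) and Ptger4 (-0.241), without the filter for Ptger4 (-0.009) and with the scan day block for Ptger1 (0.088), and at 2 days with the brightest spot for Ptges (0.009). With 1 array left out, the calls ranged from 2 to 7 at 7 days, 0 to 1 at 2 days, 0 to 2 for the mean over 4 days, 0 to 3 for the difference between days and 1 to 4 for CRC between days, and log2 fold changes at 7 days from -0.299 to 0.01 for Ptgs1, -0.437 to 0.326 for Ptger1 (0.08 without CRC + E171 male 2) and -0.282 to 0.219 for Ptger4, and at 14 days from -0.155 to 1.083 for Hpgd. The cause was not tested, beyond which arrays were left out.

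Groups share replicate numbers within a sex. Same-numbered arrays of the 2 arms correlated between -0.18 and 0.48 in their deviations from group means, over 0.1 in 8 of 15 pairs, and 8 correlated best with their own number. These values do not settle whether the numbers pair the mice. With the replicate number as a block the calls at 7 days stayed at 6 and those of the other days at 0, and 1 gene was called for the mean over 4 days, Ptgs2 at -0.746. Dim spots such as that of Ptgdr2 have less precise values.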
